A study of Mus musculus with 13 samples.

Results

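The C1q-like proteins and the cerebellins are secreted proteins with a globular C1q domain. The group described here holds 6 genes, C1ql1, C1ql2, C1ql3, Cbln1, Cbln2 and Cbln4, out of 35468 gene names in the 2 count tables of the series. They were chosen by name as members of these families, with their pattern across neuron classes already known from these data. Their levels across classes are therefore a description and not a test. C1ql2, C1ql3, Cbln2 and Cbln4 had a row among the 15114 genes counted in dissociated cells. All 6 had a row among the 32285 genes counted in tissue sections, so C1ql1 and Cbln1 are described in sections only.

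The neurons came from the retrosplenial cortex, a midline cortical area, of wild-type mice of the B6 strain. The labels name no treatment, and the age is not given in the sources used here. The 765 dissociated neurons formed 11 samples (numbers 1 to 3 from animal 1, 11 to 14 from animal 2 and 15 to 18 from animal 3), each pooled over acute slices. By dissection level along the long axis of the area, 256 neurons were anterior, 217 medium and 292 posterior, and each animal gave all 3 levels. The 2 cryosections of flash-frozen wild-type brain, stained for NeuN and DAPI and called S4 and S8 here, were profiled on Visium slides, on which a spot captures RNA from a small area that can hold several cells.

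C1q-like proteins are released from axon terminals and bind the adhesion receptor Adgrb3 (also called Bai3) on the target neuron. At hippocampal mossy fibre synapses, C1ql2 and C1ql3 also bind neurexins and gather kainate receptors, whose subunits include Grik2 and Grik4. Cerebellins form a bridge between presynaptic neurexins and postsynaptic delta glutamate receptors such as Grid1. Cbln4 also binds Dcc and its relative Neo1. The proteins are ligands made by the sending neuron, so a neuron's transcript level speaks of what it may release and not of what it receives.

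The promoters of C1ql2 and C1ql3 are shown because these close relatives differed in the neuron classes in which they were found. Both come from RefSeq (GRCm38.p6) and hold the 250 bases before the annotated start, written 5′ to 3′ on the gene's strand, with capitals on the letters GGGCGG read on either strand (CCGCCC on the other one). C1ql2 lies at chr1:120340332-120340581 on the plus strand and C1ql3 at chr2:13010865-13011114 on the minus strand.
C1ql2: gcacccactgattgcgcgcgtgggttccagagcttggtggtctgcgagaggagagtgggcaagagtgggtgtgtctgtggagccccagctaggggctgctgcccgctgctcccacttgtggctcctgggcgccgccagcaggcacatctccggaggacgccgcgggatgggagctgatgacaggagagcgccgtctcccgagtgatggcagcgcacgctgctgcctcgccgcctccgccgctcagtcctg
C1ql3: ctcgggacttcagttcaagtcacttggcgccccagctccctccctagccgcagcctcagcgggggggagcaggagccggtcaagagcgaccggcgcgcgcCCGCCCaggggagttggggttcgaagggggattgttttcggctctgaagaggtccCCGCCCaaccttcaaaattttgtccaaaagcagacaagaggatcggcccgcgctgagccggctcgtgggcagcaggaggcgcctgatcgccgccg
The C1ql2 window held 68.8% G and C with 20 CpG pairs, and the C1ql3 window 66.4% with 23, against medians of 52.4% and 6 over the windows of all 32851 promoters in the table. GGGCGG occurred 2 times upstream of C1ql3 and 0 times upstream of C1ql2, and 32.7% of all promoters of this length held it. Neither window held CAGCTG (in 13.001% of all promoters), the letters TATAAA (in 12.4%) or CCAAT (in 33.8%), each read on both strands. Cbln4, the third of the 3 members with an entry, had 60.8% G and C, 11 CpG pairs, 2 overlapping GGGCGG matches and 1 CCAAT.

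The samples of cells held between 2306470 and 15974543 counts, and the median total per cell was 65843 in animal 1, 132797 in animal 2 and 185995 in animal 3. Slc17a7, the vesicular glutamate transporter of cortical excitatory neurons, had a count in 756 of 765 cells. The 2 of 3 inhibitory markers with a row (out of Gad1, Gad2 and Slc32a1) reached at most 1.66 CPM (a gene's share of the summed counts, in parts per 1000000) in any cluster, and the 3 astrocyte markers at most 4.65 CPM. The 4 oligodendrocyte markers summed to 41.7 to 195 CPM across clusters. Clustering of the cells gave 11 clusters, numbered by size. Clusters 3 (led by Car8, Chst9 and Mc4r) and 7 (led by Nrtn, Rest and Frmpd1) were both high in Fezf2, Bcl11b, Parm1 and Chst8, markers of layer 5 neurons that project out of the telencephalon (ET-like). Cluster 4 was layer 6 intratelencephalic-like, cluster 5 layer 6 corticothalamic-like and cluster 11 layer 6b-like by markers, and the others are called by their leading genes. Levels in CPM are sums over the cells of 1 animal in 1 cluster divided by their total, given where at least 5 cells were present.

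C1ql2 was high in both ET-like clusters and low in every other cluster. In cluster 7 it stood at 691 CPM in animal 1, 552 in animal 2 and 827 in animal 3 (690 ± 138, SD, n = 3). In cluster 3 it stood at 676 CPM in animal 1 and 521 in animal 2 (598 ± 110, SD, n = 2), and the 2 cells of animal 3 held 819 CPM. The values of the 2 ET-like clusters overlapped. In cluster 5 the animals held 3.72, 15.9 and 1.90 CPM, and in each of the other clusters the mean was at most 1.31 CPM. All ET-like values therefore lay above all values elsewhere, a separation that is a description because the clusters were drawn from the same cells with C1ql2 in the table. With the members left out of the clustering, cluster 7 held 700 CPM and cluster 3 held 592 CPM.

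**Figure D1:**
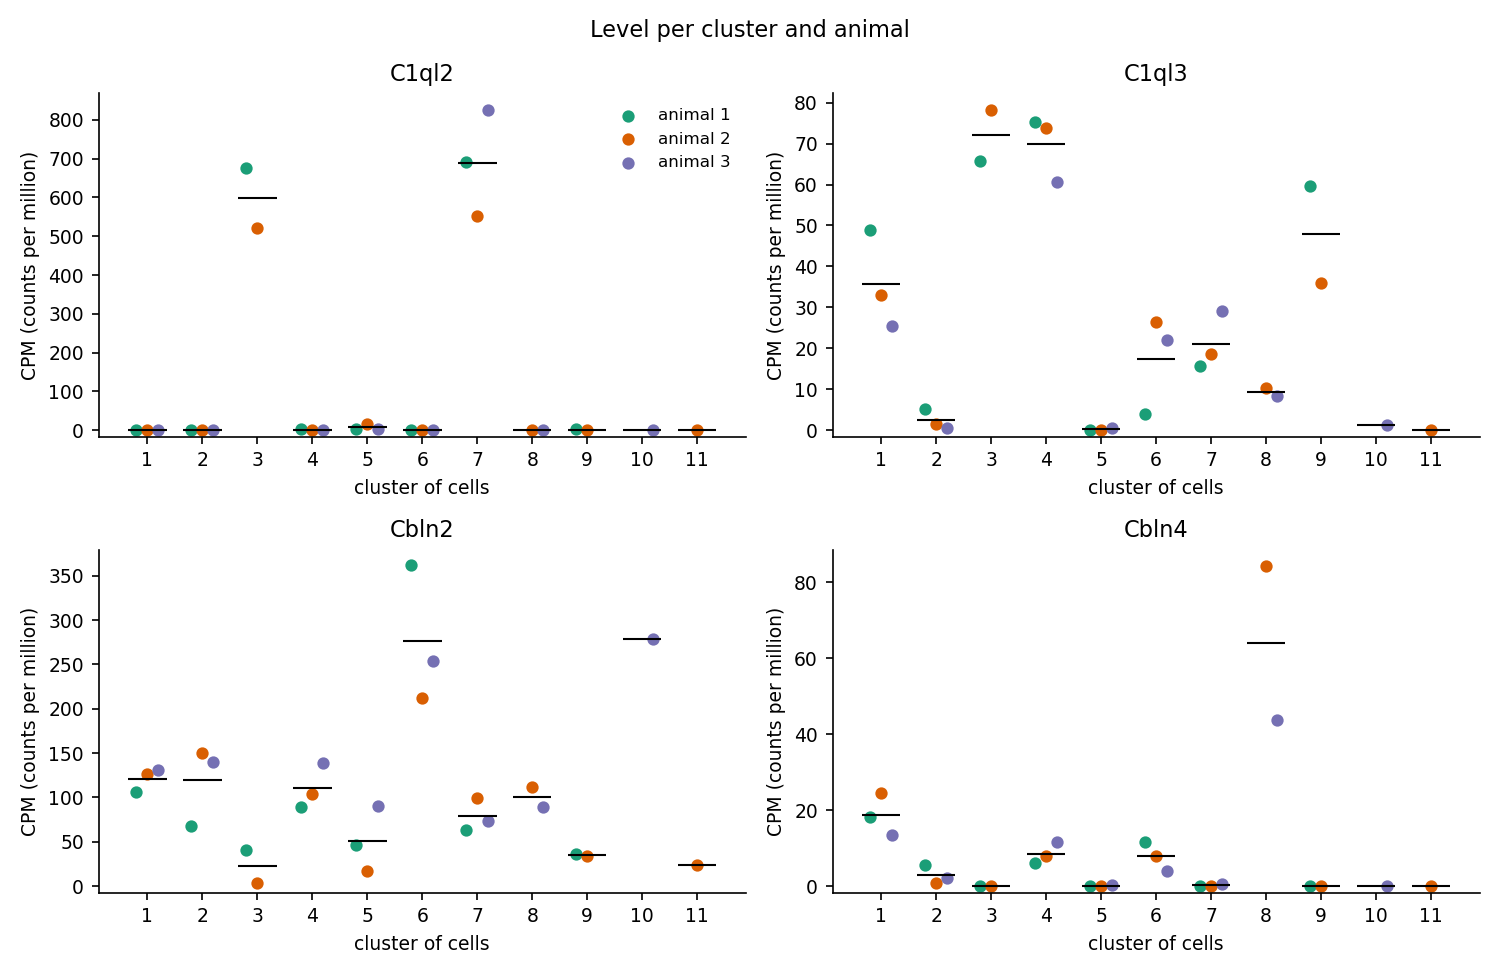
Level of the 4 members counted in cells, in CPM (linear axis), for each cluster of cells. Points are sums per animal of at least 5 cells and lines are means over the animals shown. C1ql2 stood above 500 CPM in clusters 3 and 7 and below 16 CPM elsewhere, while Cbln2 was spread over all clusters and peaked in clusters 6 and 10.

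Detection followed the same split. C1ql2 had a count in 120 of 141 ET-like cells (85.1%, exact 95% binomial interval 78.1 to 90.5) and in 46 of the 624 other cells (7.37%, 5.45 to 9.71), at median totals of 138040 and 138509 counts per cell. Of those 46 cells, 37 held a single count and 10 held more than 20 CPM. After each cell was thinned to 50000 counts, leaving out 61 shallower cells, the shares were 112 of 137 (81.8%) and 19 of 567 (3.35%). Intervals cover counting error only, since cells of 1 animal are not replicates and reads may not be independent molecules.

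Within the ET-like clusters single cells differed widely in C1ql2. Of the 120 cells with a count, 115 held more than 20 CPM, and 21 cells held none. In cluster 3, 18 of 76 cells had a C1ql2 count of 0, of which 3 were among the 33 cells of animal 1 and 15 among the 41 of animal 2. The 15 came from all 4 samples of animal 2, in which 5 of 10, 3 of 11, 4 of 7 and 3 of 13 cells of the cluster were at 0. These cells were not shallow, with a median total of 128320 counts and a lowest of 57533, against a median of 94365 for the cells with C1ql2. C1ql3 was counted in 15 of the 18. In cluster 7, 3 of 65 cells were at 0, all in animal 2. Median C1ql2 over the cells of cluster 3 was 604 CPM in animal 1 and 244 CPM in animal 2, and single cells reached 2354 CPM.

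**Figure D2:**
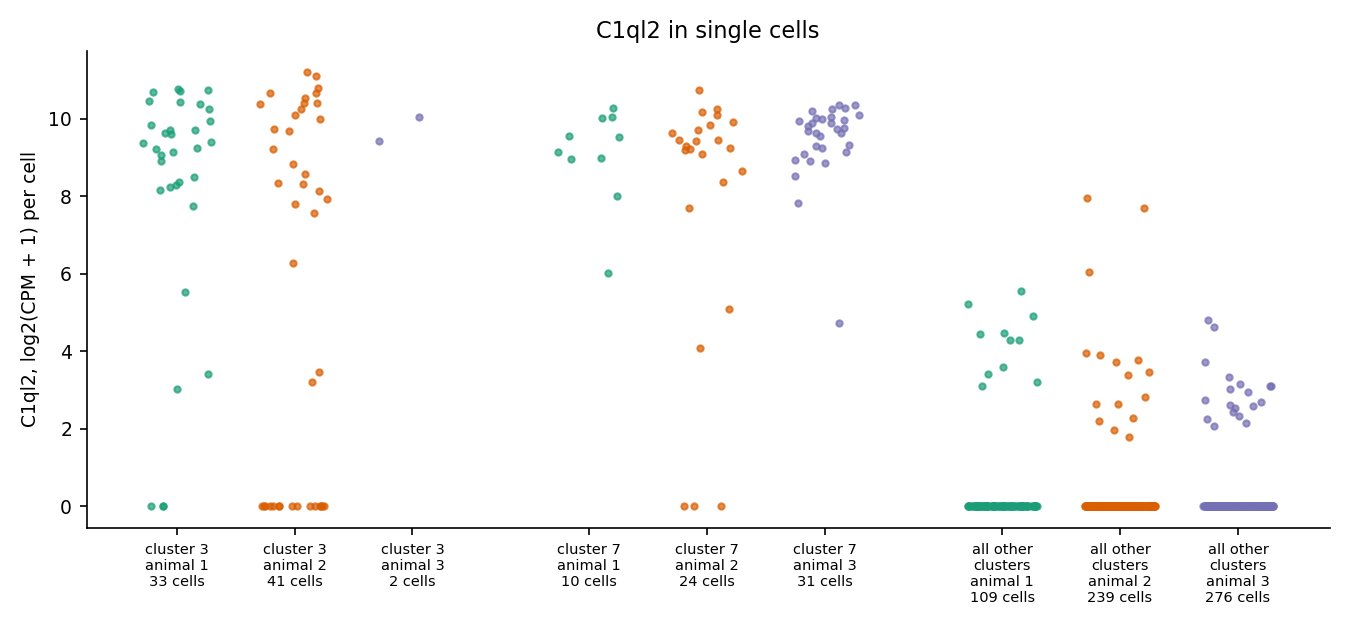
C1ql2 in single cells as log2(CPM + 1), with 1 point per cell, by cluster and animal. Cells of clusters 3 and 7 lay mostly high, with a row of cells at 0 (15 of 41 cells in cluster 3 of animal 2), and most cells of all other clusters were at 0.

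A few cells outside the ET-like clusters also held C1ql2. In cluster 5, the layer 6 corticothalamic-like cells, 9 of 71 had a count, and the highest reached 247 CPM. Sample 11 of animal 2 held 36.2 CPM over its 14 cells of that cluster, while the other samples held 0 to 10.1 CPM, so the 15.9 CPM of animal 2 rested on that sample.

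C1ql3 was spread more widely and in another order. It was highest in cluster 3, with 65.9 CPM in animal 1 and 78.3 in animal 2 (72.1 ± 8.81, SD, n = 2), and in cluster 4, with 75.4, 73.8 and 60.5 CPM in animals 1, 2 and 3 (69.9 ± 8.16, n = 3). These clusters overlapped. Cluster 9, led by Gpr115, Adcy7 and Ccna2, followed with 47.8 ± 16.7 CPM (n = 2), and the large cluster 1, led by Otof, Ngb and Klf14, held 35.8 ± 12.04 CPM (n = 3), the ranges again overlapping. Cluster 7 had 21.2 ± 7.07 CPM and cluster 6, led by Ido1, Ptprm and Inhbb, 17.5 ± 11.98 CPM (both n = 3). C1ql3 was close to absent in cluster 5, where 2 of 71 cells had a count, and in cluster 11, where 0 of 11 did (upper exact limit 28.5%). Cluster 2, led by Tnnc2, Pygm and Eps8l2, had C1ql3 in 9 of 122 cells.

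C1ql3 was higher in cluster 3 than in cluster 7 in animals 1 and 2, while animal 3 had only 2 cells in cluster 3. It was at 65.9 and 78.3 CPM in cluster 3 and at 15.7, 18.7 and 29.1 CPM in animals 1, 2 and 3 of cluster 7, while the 2 cells of animal 3 in cluster 3 held none. Within the posterior cells of animal 1 it held 65.9 CPM in 33 cells of cluster 3 and 28.0 CPM in 4 cells of cluster 7, and within those of animal 3 it held 0 CPM in 2 cells of cluster 3 and 38.3 CPM in 23 cells of cluster 7. Of the posterior ET-like cells, 33 of 37 in animal 1 and 41 of 42 in animal 2 lay in cluster 3, against 2 of 25 in animal 3, so the cluster and the animal cannot be told apart at that level. In animal 2 all 41 cells of cluster 3 were posterior, against 1 of 24 cells of cluster 7, so cluster and level cannot be told apart there. Within cluster 7, C1ql3 was at 9.51 CPM anteriorly (3 counts in 2 cells) and 28.0 CPM posteriorly (4 cells) in animal 1. In animal 3 it was at 5.18 CPM anteriorly (6 counts in 4 cells) and 38.3 CPM posteriorly (23 cells). Animal 2 went the other way, with 23.0 CPM in 13 anterior cells and 0 in its single posterior cell. C1ql2 and C1ql3 both had a count in 53 of 76 cells of cluster 3 and in 47 of 65 cells of cluster 7.

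Cbln2 had the broadest distribution of the members counted in cells. In cluster 6 it stood at 362, 213 and 254 CPM in animals 1, 2 and 3 (276 ± 77.1, SD, n = 3), the 362 CPM resting on 5 cells. The 6 cells of animal 3 in cluster 10, led by Amigo2, Kcnip1 and Nxph1, held 278 CPM, with too few cells in the other animals. Clusters 1, 2, 4 and 8 lay at 121 ± 12.9, 119 ± 45.2, 111 ± 25.6 and 100.4 ± 15.5 CPM (n = 3, 3, 3 and 2), not separated beyond their spread. Cluster 7 followed with 78.7 ± 18.4 CPM (n = 3) and cluster 5 with 51.4 ± 36.8 CPM (n = 3). The lowest mean of the clusters with more than 1 animal was that of cluster 3, with 40.8 CPM in animal 1 and 3.79 in animal 2 (22.3 ± 26.2, n = 2). Cluster 9 held 36.4 and 34.2 CPM in these animals (35.3 ± 1.59, n = 2). It was below cluster 3 in animal 1, so the rank rested on animal 2. Cbln2 had a count in 17 of 76 cells of cluster 3 (22.4%, 13.6 to 33.4) and in 48 of 65 cells of cluster 7 (73.8%, 61.5 to 84.0), at median totals of 100766 and 223781 counts per cell. After thinning to 50000 counts the shares were 14 of 74 (18.9%) and 39 of 63 (61.9%), so a gap remained at equal depth and was narrower. The clusters also differed in the animals and levels their cells came from, whose part in this was not tested.

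Cbln4 was the sparsest of these members, with a count in 79 of 765 cells. It was highest in cluster 8, led by Bend7, Sncaip and Fam181b, with 84.4 CPM in animal 2 and 43.7 in animal 3 (64.1 ± 28.8, SD, n = 2). Cluster 8 was also shallow, with a median total of 77922 counts per cell, and 12 of its 38 cells had a count. These were 9 of 19 cells in animal 2 and 2 of 17 in animal 3, both of the latter anterior, so the value of animal 3 rested on 2 cells. Cluster 1, which shared Calb1, Penk and Ddit4l with cluster 8 among the 10 genes highest against the mean of the other clusters, came next with 18.3, 24.5 and 13.4 CPM (18.7 ± 5.59, n = 3). Clusters 4 and 6 held 8.54 ± 2.75 and 7.83 ± 3.91 CPM (both n = 3), with overlapping values. No cell of cluster 3 had a count, 0 of 76, which allows a share of up to 4.74% (exact limit) and a level of 0.369 CPM for 3 counts. Only 2 of 65 cells of cluster 7 had one.

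Each cell usually held only some of the members. Of the 765 cells, 96 held none of the 4, 277 held 1, 291 held 2, 97 held 3 and 4 held all 4. In cluster 7 the commonest numbers were 2 (30 cells) and 3 (29 cells), and in cluster 2 it was 1 (89 of 122 cells), which was mostly Cbln2, counted in 98 cells of that cluster. C1ql2 and Cbln4 were found together in 8 cells, which is 4.82% of the cells with C1ql2 and 10.1% of those with Cbln4.

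Genes with the pattern most like each member were sought over the 26 sums per animal and cluster, among 9568 genes, by Pearson correlation of log2(CPM + 1). These correlations describe sums that share animals and depth, and carry no test. Closest to C1ql2 were Fam84b (r = 0.91), Ptpro (r = 0.90), a receptor tyrosine phosphatase, and Tns1 (r = 0.87), an actin-linked adhesion protein. Cluster 7 held 36.6 CPM of Fam84b, cluster 3 held 28.7 CPM and the next cluster 1.46 CPM. Closest to C1ql3 were Dgkb (r = 0.83), a diacylglycerol kinase, Trpc5 (r = 0.81), a cation channel, and Cd83 (r = 0.81). For Cbln2 they were Nrn1 (r = 0.75), the neurite growth factor neuritin, Rnf207 (r = 0.68) and Cyp11a1 (r = 0.67), and for Cbln4 Tmem215, Spag5 and Exph5 (r = 0.81, 0.81 and 0.80). A high r did not always go with the same highest cluster. Cd83 was highest in cluster 8 (114 CPM), where C1ql3 held 9.33 CPM. Tmem215 was highest in cluster 6 (136 CPM), where Cbln4 held 7.83 CPM, against 64.1 CPM in cluster 8. Exph5 was highest in cluster 8 (44.2 CPM), as Cbln4 was. Among the members themselves r was 0.49 between Cbln2 and Cbln4, 0.28 between C1ql2 and C1ql3, and -0.49 between C1ql2 and Cbln4. It was -0.48 between C1ql2 and Cbln2, 0.26 between C1ql3 and Cbln4, and -0.06 between C1ql3 and Cbln2.

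The receptors and partners differed in how they were spread over the clusters. All 12 listed genes had a row (Adgrb1 to Adgrb3 under the older names Bai1 to Bai3). Adgrb3, the receptor of the C1q-like proteins, ranged over the clusters with at least 2 animals from 45.8 ± 17.8 CPM in cluster 7 to 109 ± 11.2 CPM in cluster 5 (both SD, n = 3). Grik2, a kainate receptor subunit, stood at 41.9 ± 12.7 CPM in cluster 3 (n = 2) and 41.4 ± 15.1 CPM in cluster 7 (n = 3), the clusters with C1ql2, and at no more than 20.4 CPM on average in any other. The ranges overlapped, as cluster 4 reached 36.2 CPM in 1 animal while the lowest ET-like value was 31.8 CPM. Grik4, another subunit, was low in the ET-like clusters, with means of 2.09 ± 0.43 CPM (cluster 3) and 0.706 ± 1.01 CPM (cluster 7). It reached 36.0 ± 17.7 CPM in cluster 8 (n = 2) and 39.6 CPM in the 1 animal of cluster 10.

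Grid1, a delta receptor, ran from 7.11 ± 4.58 CPM in cluster 5 to 32.5 ± 4.49 CPM in cluster 2 (both n = 3), among clusters with at least 2 animals, and was at 68.4 CPM in the 1 animal of cluster 10. Dcc, a partner of Cbln4, was highest in cluster 4 (16.9 ± 11.8 CPM, n = 3) and cluster 9 (14.99 ± 5.97 CPM, n = 2), and no count of it was found in clusters 7 and 8. Cluster 4 held 42.5 ± 21.4 CPM of its relative Neo1 and cluster 6 held 39.96 ± 29.4 CPM (both n = 3), with overlapping values. None of the other family members listed (C1ql4 and Cbln3) or the complement chains C1qa, C1qb and C1qc had a row in the cell table.

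**Figure D3:**
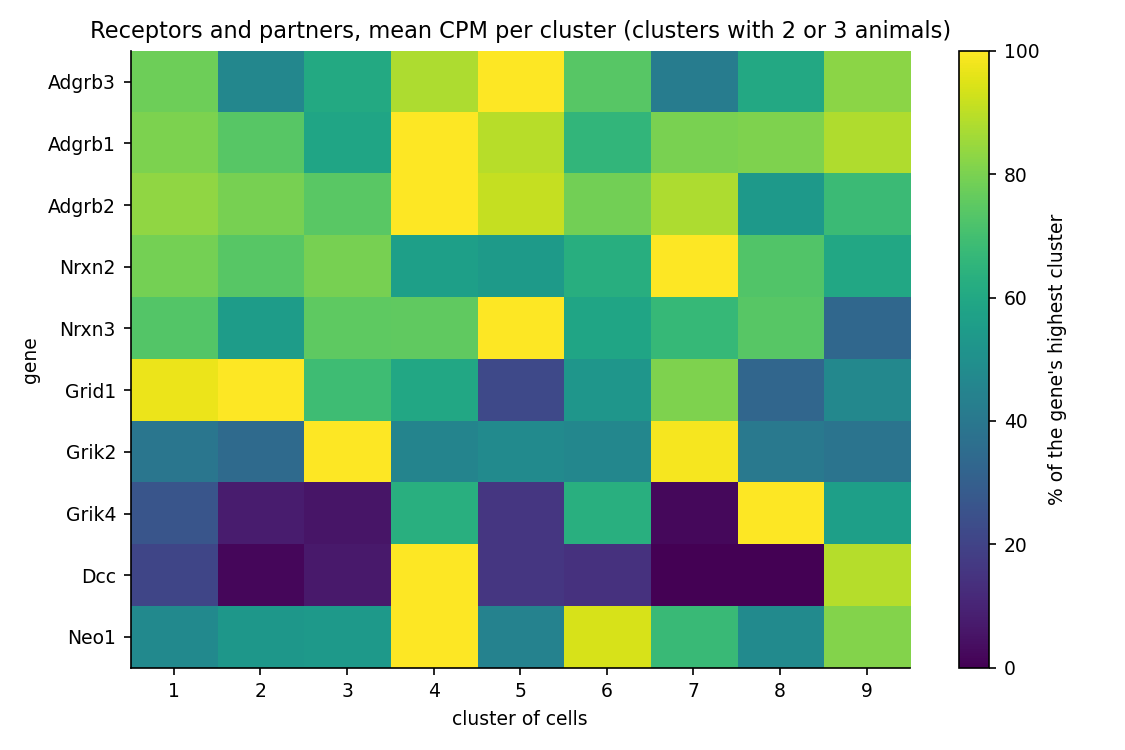
Mean level of 10 of the 12 receptors and partners in the 9 clusters that 2 or 3 animals entered, each gene scaled to its own highest cluster (colour, percent). Grik2 was highest in clusters 3 and 7, where Grik4 was near its lowest, and Adgrb3 peaked in cluster 5.

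The dissection levels were compared in sums over all neurons of an animal at a level, 3 against 3, with edgeR's quasi-likelihood test over 13628 genes. A gene was called when its p, adjusted by the Benjamini-Hochberg method, was under 0.05 and its log2 fold change was at least 1 in size. In such sums a larger share of a cell type and more RNA per cell cannot be told apart, so the shares of ET-like cells are given beside them. None of the 4 members was called in either contrast, against 0.00734% of genes called in each, which is the single gene Ptgds, a prostaglandin synthase (lower at both levels, named after its value was seen). At an unadjusted p under 0.05 there were 449 of the 13628 genes for medium against anterior, 1 of them a member (C1ql2). For posterior against anterior there were 594 of the 13628, with 2 members (C1ql2 and Cbln4). DESeq2 tested 15072 genes and called 6 (0.0398%) and 57 (0.378%), with 0 and 2 members.

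C1ql2 was higher at the posterior level in each animal without passing that rule. The anterior levels were 37.7, 74.0 and 23.6 CPM in animals 1, 2 and 3, the medium levels 91.9, 139 and 50.6 CPM, and the posterior levels 413, 228 and 267 CPM. All 3 posterior values lay above all others, and the medium and anterior values overlapped, although medium was above anterior within 3 of 3 animals. The log2 fold change of posterior against anterior was 2.74 (SE 0.43, edgeR adjusted p = 0.0822). With the animal as a block it was 2.91 (SE 0.36, edgeR adjusted p = 0.0190), which passed, in a fit that called 14 genes (0.103%). Without animal 2 it was 3.49 (edgeR adjusted p = 0.0109) and also passed, while without animal 1 it was 2.34 (edgeR adjusted p = 0.987). DESeq2 gave an adjusted p of 1.01e-07. For medium against anterior the log2 fold change was 1.01 (SE 0.41, edgeR adjusted p = 0.999).

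The share of ET-like cells moved with this difference. They made up 4.44%, 12.3% and 3.81% of the anterior cells of animals 1, 2 and 3, 11.4%, 11.2% and 4.30% of the medium cells, and 51.4%, 38.5% and 22.5% of the posterior cells. All 76 cells of cluster 3 were posterior. Without clusters 3 and 7, C1ql2 was at 0.317 to 3.27 CPM in every animal and level. The log2 fold change of posterior against anterior was then -1.63 (SE 1.27, edgeR adjusted p = 1.00). It rested on few counts, 6, 47 and 8 anteriorly and 2, 2 and 7 posteriorly in animals 1, 2 and 3. Of the 47, 42 lay in 3 cells of cluster 5.

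Within the ET-like cells, C1ql2 was lowest at the anterior level in every animal. Both clusters together held 412, 399 and 463 CPM in animals 1, 2 and 3 anteriorly (2, 13 and 4 cells), 484, 898 and 776 CPM at the medium level (4, 10 and 4 cells), and 723, 506 and 906 CPM posteriorly (37, 42 and 25 cells). The 3 anterior values did not overlap those of the other levels. In cluster 7 alone the posterior values were 1031 CPM in 4 cells of animal 1, 911 CPM in 23 cells of animal 3 and 0 in the single cell of animal 2. These differences were not tested, since 2 of the anterior sums rested on 4 cells or fewer. C1ql3 in the same cells was at 9.51, 23.0 and 5.18 CPM anteriorly and at 60.8, 76.1 and 36.3 CPM posteriorly, without overlap, and most posterior cells of animals 1 and 2 were cells of cluster 3.

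Cbln4 ran the other way along the axis. It stood at 10.8, 13.8 and 13.5 CPM anteriorly in animals 1, 2 and 3, at 5.33, 8.10 and 4.80 CPM at the medium level, and at 1.06, 2.96 and 3.24 CPM posteriorly, so that the 3 levels did not overlap. The log2 fold change of posterior against anterior was -2.37 (SE 0.54, edgeR adjusted p = 0.309), which did not pass, although DESeq2's adjusted p was 0.00347. The counts were few, 6, 34 and 66 at the posterior level. Without the ET-like clusters, which almost lack Cbln4, the values were 11.8, 16.9 and 14.3 CPM anteriorly and 2.48, 5.39 and 4.31 CPM posteriorly. These 2 levels still did not overlap, while the medium values of 6.54, 9.57 and 5.13 CPM overlapped the posterior ones. The log2 fold change of posterior against anterior was -1.80 (SE 0.54, edgeR adjusted p = 1.00).

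For C1ql3 and Cbln2 the values of the levels overlapped. C1ql3 was at 34.1, 16.7 and 24.7 CPM anteriorly and at 47.1, 60.6 and 27.9 CPM posteriorly. It was higher posteriorly in 3 of 3 animals, by 0.84 on the log2 scale (SE 0.40, edgeR adjusted p = 1.00), which did not pass. Its medium values of 20.7, 23.6 and 8.83 CPM overlapped the anterior ones. Cbln2 was at 68.4, 111 and 132 CPM anteriorly and at 67.9, 40.0 and 132 CPM posteriorly, a difference of -0.38 on the log2 scale (SE 0.38, edgeR adjusted p = 1.00). Over all neurons, the fall in animal 2, from 111 to 40.0 CPM, was not seen in the other animals.

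**Figure D4:**
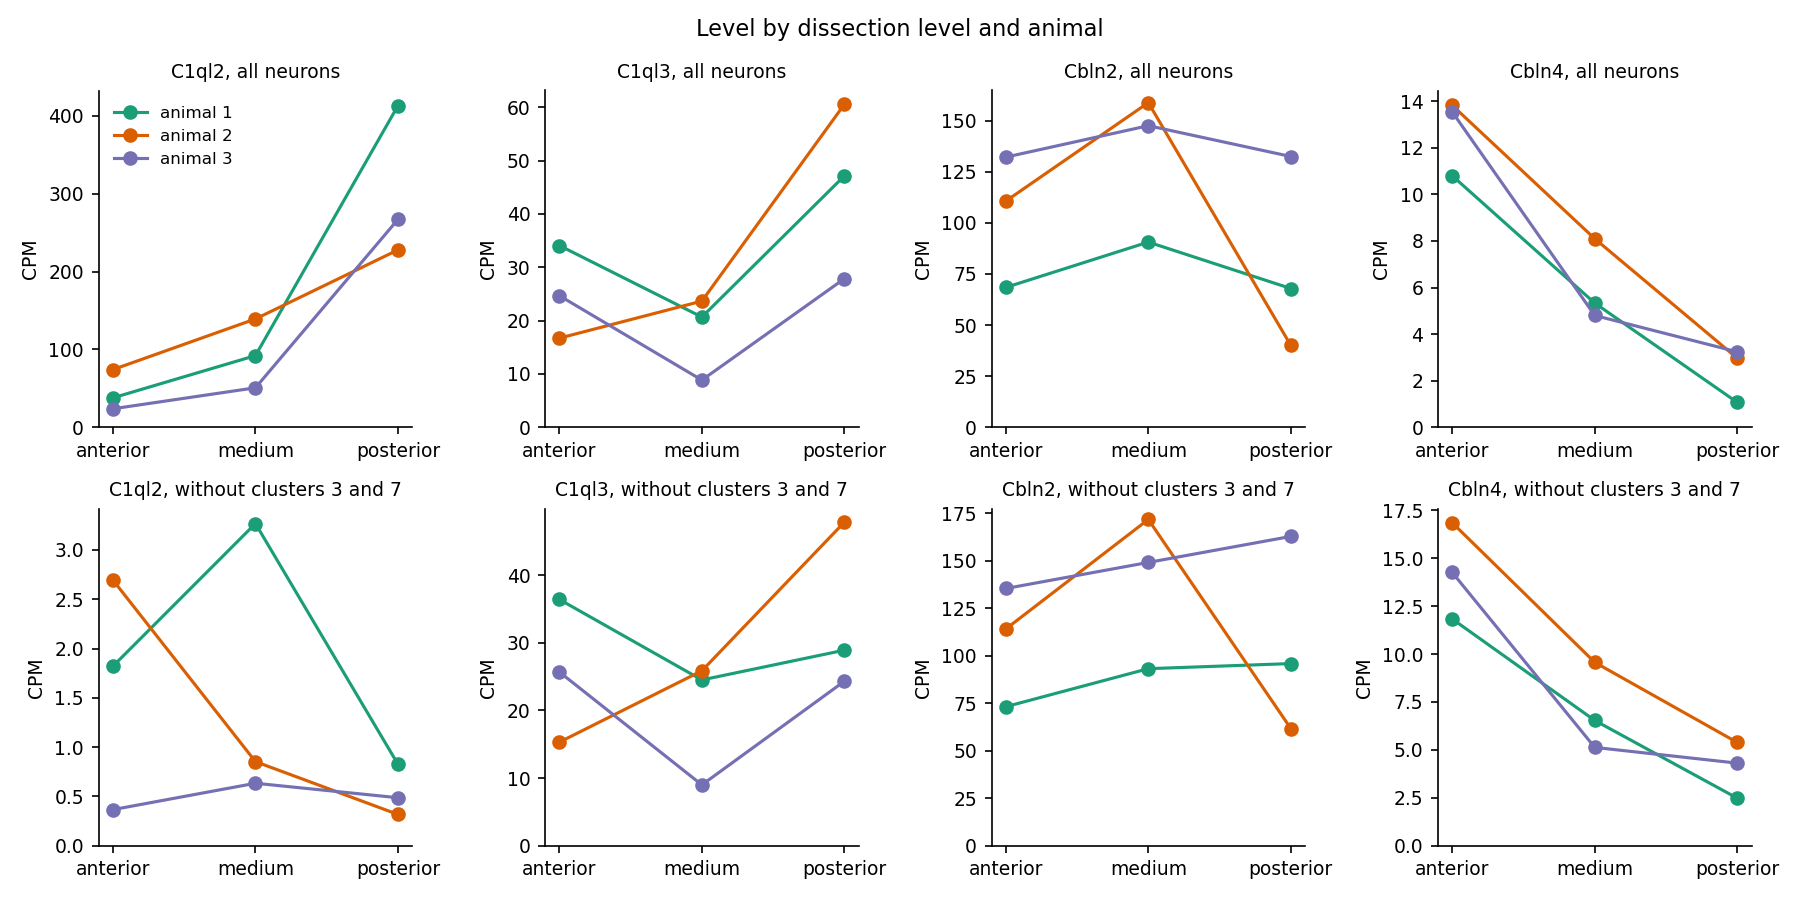
Members by dissection level, in CPM (linear axes starting at 0), with 1 line per animal, for all neurons (top) and without clusters 3 and 7 (bottom). C1ql2 was highest posteriorly in all 3 animals only in the top row, and Cbln4 was highest anteriorly in all 3 animals in both rows.

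Only clusters 2 and 4 had at least 3 cells of each animal at both ends and could be tested within themselves. In cluster 2, Cbln2 was the 1 member with enough counts. It stood at 120, 135 and 172 CPM anteriorly in animals 1, 2 and 3 and at 42.7, 71.6 and 115 CPM posteriorly, lower in 3 of 3 animals and without overlap, the 71.6 CPM resting on 3 cells. It had a log2 fold change of -0.92 for posterior against anterior (SE 0.42, edgeR adjusted p = 1.00), which did not pass, and 0 of 9618 genes passed (0%), while 177 had an unadjusted p under 0.05 and DESeq2 called 1. In cluster 4 the 3 members tested gave log2 fold changes of 0.58 for C1ql3 (SE 0.49), -1.16 for Cbln2 (SE 0.72) and -2.44 for Cbln4 (SE 1.56), each with an edgeR adjusted p of 0.999, against 0.0115% of genes called, which is the single gene Nnat (named after its value was seen). No member was called. Leaving out 1 animal moved Cbln2 between -0.59 (without animal 2) and -1.85 (without animal 1), C1ql3 to 0.30 without animal 2 and Cbln4 to -6.52 without animal 3, and the block moved Cbln4 to -3.75. The sums held 3 to 27 cells in cluster 2 and 6 to 14 in cluster 4.

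Of the 12 receptors and partners, 0 were called in either contrast over all neurons, against 0.00734% of genes, and DESeq2 also called 0. Grik2 was the 1 partner at an unadjusted p under 0.05 in each. Their median log2 fold change was -0.01 for posterior and 0.15 for medium against anterior, beside 0.01 and -0.02 over all genes tested. Of the 25 tested genes of other synaptic organizers, such as neuroligins and Slitrk proteins, 0 were called by edgeR or DESeq2 (3 and 0 at an unadjusted p under 0.05), with medians of -0.04 and 0.001.

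In the sections, 1022 spots of S4 and 951 of S8 held medians of 8267 and 6705 counts. Spots were grouped into zones by clustering with each gene centred within its section, and 9 of 11 zones had at least 10 spots in both sections. The 2 sections shared 162 spot barcodes, which stand for slide positions. Zone levels are sums over the spots of 1 section with exact 95% Poisson intervals, which cover counting error only, and they are not tested, because the zones came from the same counts.

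C1ql2, Cbln1 and Cbln2 were all high in zone 1, the zone led by Tshz2, Cbln1 and Nrep. C1ql2 was at 24.04 CPM in S4 (16.1 to 34.5) and 44.1 CPM in S8 (31.2 to 60.5) there, from 65 counts in each whole section. The next levels were 21.7 CPM in zone 4 of S4 (12.9 to 34.4) and 26.7 CPM in zone 9 of S8 (11.5 to 52.6), with intervals that overlapped those of zone 1. Neither zone was as high in the other section, at 8.14 and 2.84 CPM. Cbln1, which helped to define the zone, was at 28.2 CPM in S4 and 66.1 CPM in S8, and its next zone was zone 6, with 22.2 and 13.5 CPM. The Cbln1 intervals of zones 1 and 6 overlapped in S4 (19.5 to 39.4 and 11.4 to 38.7) but not in S8 (50.1 to 85.7 and 7.20 to 23.1). Cbln2 was at 53.9 and 69.6 CPM in zone 1 and at 55.2 and 56.6 CPM in zone 2, led by Etnk2, Rnd1 and Rskr, with overlapping intervals. Zone 1 was also the zone with the highest level of Fezf2, an ET marker, at 71.6 CPM over both sections against 12.4 to 50.1 CPM in the other 8. Bcl11b, another ET marker, was at 58.98 CPM in zone 1, below zones 4, 5 and 6 (133, 83.6 and 78.5 CPM). Parm1 and Chst8 are not given for zones. Tshz2, listed here as a marker of near-projecting neurons, was at 225 CPM in zone 1 and at most 59.8 CPM elsewhere. Slc17a6 was also highest in zone 1, at 67.7 CPM against at most 34.1 CPM (zone 7). Scnn1a, from the list for retrosplenial granular neurons, was at 10.6 CPM there and at 9.33 CPM in zone 3. Which cells of the zone held the members was not tested. C1ql2 was counted in 26 of 160 spots of zone 1 in S4 and Cbln1 in 29, with both in 6. In S8 they were counted in 26 and 33 of 123 spots, with both in 7.

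C1ql3 had its own zones. It was highest in zone 4, led by Zfp423, Pcdh20 and Trpc7, at 116 CPM in S4 (93.9 to 142) and 298 CPM in S8 (262 to 336), so that the sections differed beyond counting error. Zone 8 followed in S8 with 239 CPM from 29 spots, against 75.9 CPM in S4, and zone 6 held 88.6 and 123 CPM. Zone 1 had 24.9 and 18.6 CPM of C1ql3. Cbln2 had its lowest levels in zones 4 and 8, from few counts. Zone 4 held 3.62 CPM in S4 (3 counts) and 5.81 CPM in S8 (5 counts). Zone 8 held 7.59 CPM in S4 (6 counts) and 5.32 CPM in S8 (1 count in 29 spots, 0.135 to 29.6). That last interval overlapped those of zones 6 and 7 in S8 (11.1 to 29.6 and 8.18 to 41.9).

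Cbln4 was highest in zone 3, led by Pamr1, Rspo1 and Boc. It stood there at 20.9 CPM in S4 (13.1 to 31.6) and 22.4 CPM in S8 (14.04 to 33.9). These intervals overlapped those of zone 2 (15.3 and 13.6 CPM). They also overlapped those of zone 9, second in S4 with 17.1 CPM (8.82 to 29.8) and at 6.68 CPM in S8 (0.809 to 24.1). Zone 3 also had the highest Rorb, a gene of middle cortical layers, at 105 CPM over both sections.

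C1ql1 was sparse, with 75 counts in S4 and 64 in S8. It was highest in zone 7 of S4 (22.5 CPM, 11.6 to 39.2) and zone 4 of S8 (27.9 CPM, 17.9 to 41.5). Zone 8 came second in both, at 13.9 CPM in S4 (6.94 to 24.9) and 15.9 CPM in S8 (3.29 to 46.6). These intervals overlapped those of the highest zones. The S8 value was 3 counts in 29 spots, and its interval held the 14.5 CPM of zone 7 in S8. The summed oligodendrocyte precursor markers Pdgfra and Cspg4, both with a row, were at 55.7, 48.0 and 47.8 CPM in zones 4, 8 and 7, and at 21.8 to 30.6 CPM in the other 6. Their part in the level of C1ql1 was not tested.

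**Figure D5:**
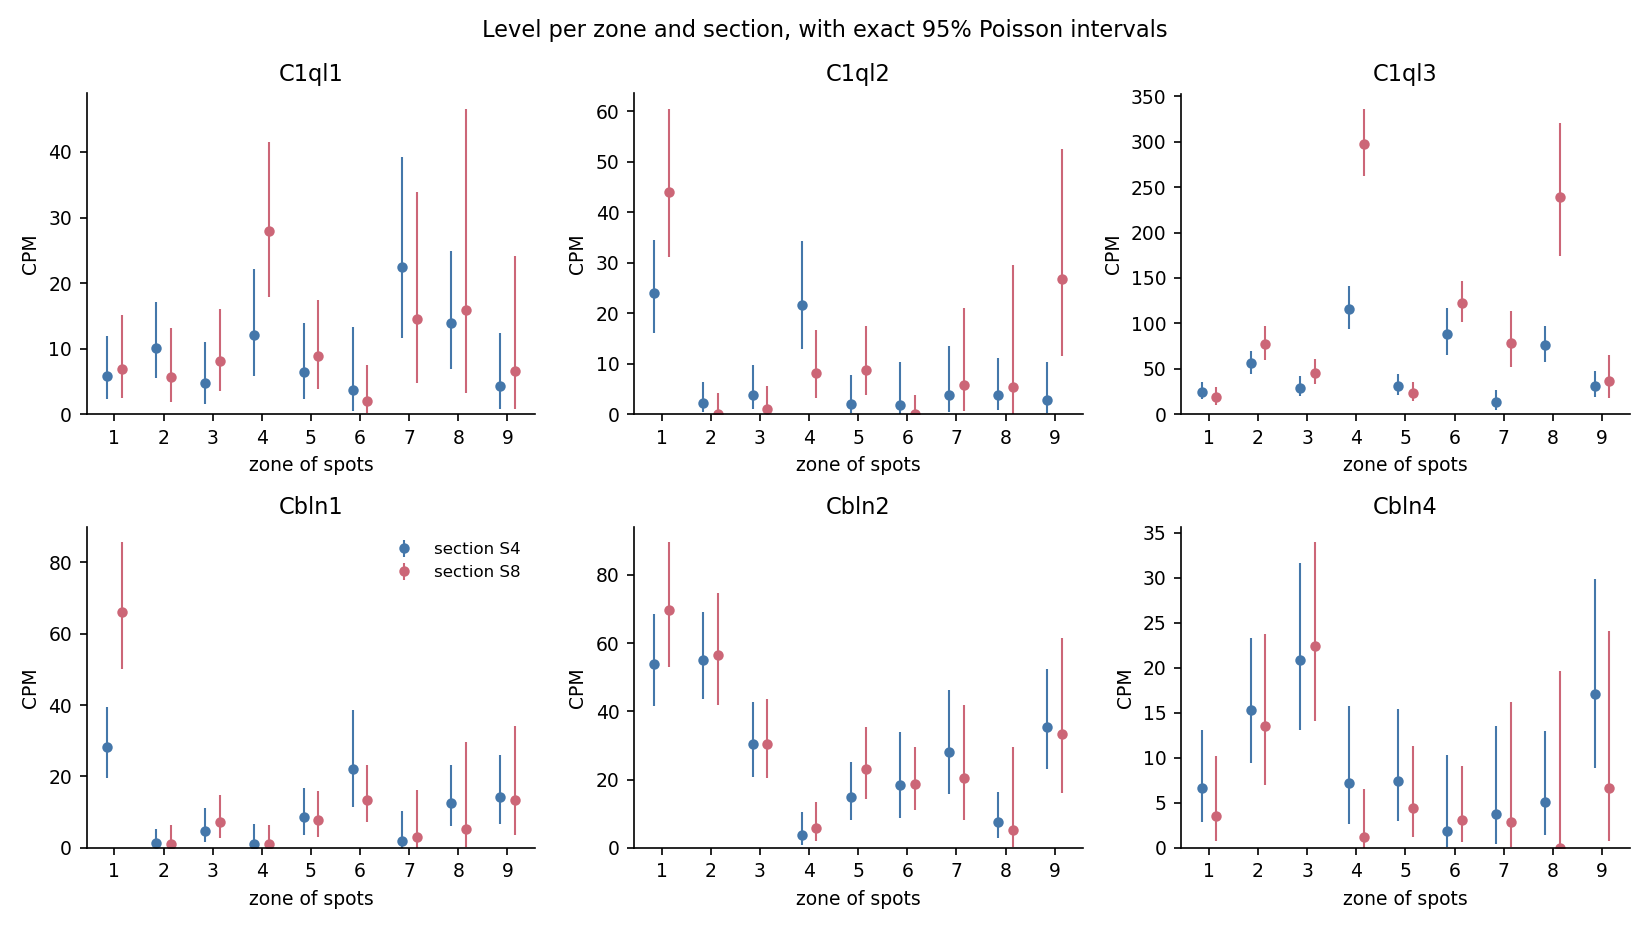
Members by zone of spots and section, in CPM (linear axes starting at 0). Points are sums over the spots of a zone in 1 section and bars are exact 95% Poisson intervals. C1ql2, Cbln1 and Cbln2 were high in zone 1 of both sections, and C1ql3 was highest in zone 4.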

How the data were processed

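Dissociated neurons (765 cells, 11 samples, 3 animals) and 2 Visium sections (1973 spots) were used. The deposited values of both tables are whole-number counts per gene, not normalized; the file headers name each cell's sample, animal and level. Builds NCBIM37 and mm10 and the tools Seurat and Space Ranger are named in the submitters' processing notes, without their roles. Aligner, annotation, strand and whether cell counts are reads or molecules are not given in the sources used here. Samples of 1 animal share its tissue, so the animal was the replicate.

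The members and all gene and marker lists were chosen with earlier results of these data known. Clustering of cells and of spots used scanpy 1.11.5 (counts scaled to 10000 and logged, 2000 variable genes, 30 components, 15 neighbours, Leiden resolution 1, seed 1), and no doublet caller was run. A name was given where all of a type's listed markers in the table, 3 or more, were found in at least 25% of a cluster's cells and were at least 1 log2 unit above the mean of the other clusters, with no more markers of another type among its top 10 genes. Cluster 2 met this for the list Scnn1a, Tnnc2 and Eps8l2 and is called by its leading genes, since that list shares genes with earlier results. Counts were summed per animal and level and tested over all genes without a block in edgeR 4.0.16 (R 4.3.3; low genes removed by filterByExpr, TMM scaling), with DESeq2 1.42.0 as an alternative; the SE is the log2 fold change divided by the square root of F. Deviations from the level means correlated between sums of the same animal by 0.05 to 0.21 (9 pairs) and between animals by -0.22 to 0.13 (18 pairs), so the fit with the animal as a block pairs sums of 1 animal. Named genes are the members, the listed receptors and partners, up to 3 leading genes per cluster and the 3 most alike genes per member (at least 20 CPM in 1 sum, predicted, ribosomal and mitochondrial genes left out). The test was checked on simulated counts with known changes. RefSeq sequences came from the table of GRCm38.p6. No column lacked a sample. Values of 2 listed partners are not reported here.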

Additional observations from a re-analysis of the deposited data

How the results depend on the processing

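C1ql2 in clusters 3 and 7 moved by less than its spread between animals with the members left out of the clustering, with TMM and without the shallowest cells. At resolution 0.5 both were matched to the same joined cluster, at 681 CPM, so that setting is no check of either alone. Leaving out 1 animal cannot move a mean of 2 or 3 beyond their SD; it gave 622 to 759 CPM in cluster 7 (animals 1, 2 and 3) and 521 to 676 CPM in cluster 3 (animals 1 and 2). At resolution 0.5, which joins clusters, C1ql3 in the cluster holding most of cluster 3 was 42.2 CPM, Cbln2 in that of cluster 6 was 152 CPM and Cbln4 in that of cluster 8 was 23.0 CPM. Cbln4 in zone 3 was 33.6 CPM with the members left out of the clustering, 14.96 CPM without 4 spots of fewer than 500 genes and 7.14 CPM at resolution 0.5, so this level depends on how the zone is drawn. Leaving out 1 section in turn was added after seeing the data. It returns the value of the other section, so it cannot pass the spread of 2 values, but it moved C1ql3 in zone 4 from 207 to 116 or 298 CPM, C1ql1 there from 19.99 to 12.1 or 27.9 CPM and Cbln1 in zone 1 from 47.2 to 28.2 or 66.1 CPM.

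Counts of called genes depended on the fit. For posterior against anterior over all neurons, edgeR called 1 gene (0.00734% of those tested) and the fit with the animal as a replicate block 14 (0.103%). DESeq2 called 57 (0.378%), sums per sample 31 (0.273%) and the cells without clusters 3 and 7 called 2 (0.015%). Leaving out 1 animal gave 1 to 2 (0.00717% to 0.015%). Members called were 0, and 1 with the block (C1ql2), 2 with DESeq2 (C1ql2 and Cbln4), 1 with sums per sample (C1ql2) and 0 to 1 without 1 animal. The fit on sums per sample counts samples of 1 animal as replicates although they share its tissue, so its calls overstate the replication. For medium against anterior DESeq2 called 6 genes and leaving out 1 animal gave 0 to 1. Within cluster 2, DESeq2 and the fit with no filter on low counts each called 1, and within cluster 4 they called 16 and 10, with 0 to 1 without 1 animal. The block changed no other member's call. Without clusters 3 and 7 the log2 fold change of C1ql2 was -1.63 (SE 1.27) for posterior and -0.28 (SE 1.23) for medium against anterior. So few C1ql2 counts remained there that the turned sign carries no meaning. The number of cells limits the sums at single levels.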
